A study of Mus musculus with 2 samples.

Results

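The 33 genes described here encode the machinery that carries new secretory and membrane proteins into the endoplasmic reticulum (ER), cuts off their signal peptides and attaches their N-linked sugars. They were taken by symbol from the gene list of the deposited matrices, where each symbol names 1 of 32285 gene identifiers. By role they are 6 genes of the signal recognition particle (SRP), 1 of the SRP receptor, 3 of the SEC61 channel, 3 of its partners SEC62, SEC63 and TRAM, Serp1 (RAMP4), 4 of the translocon-associated protein (TRAP) complex, 5 of signal peptidase and 10 of oligosaccharyltransferase (OST). Their levels were read in endothelial cells sorted from peripheral and mesenteric lymph nodes of mice labelled WT or Xbp1-KO. All 4 groups carry the label tamoxifen, a drug used to switch on inducible Cre recombinases. The labels give no Cre line, promoter, strain, age, number of animals or deleted part of Xbp1, and they say that nodes were pooled. The 4 groups were hashtagged, that is, marked with antibody-borne barcodes, and each of 2 droplet libraries holds all 4, so every group has n = 2 pools, 1 per library. The labels do not say how the pools of the libraries were drawn from animals, so p-values measure the spread between these pools.

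Ribosomes that make a protein with a signal peptide are bound by SRP and brought to the SRP receptor on the ER membrane, and the growing chain is passed into the SEC61 channel. There TRAP, TRAM and the SEC62 and SEC63 proteins assist entry, signal peptidase removes the signal, and OST transfers a ready-made sugar tree from dolichol to asparagine. High endothelial cells line the venules through which lymphocytes enter lymph nodes, and they make large amounts of sialomucins such as Glycam1. XBP1 is a regulator made when the ER is loaded with unfolded protein, and it is known to raise many genes of this entry pathway in secretory cells such as plasma cells.

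Library 1 held 7709 barcodes with 33024170 gene UMIs (unique molecular identifiers, each marking 1 captured RNA molecule) and library 2 held 2903 with 14744778, and 3 barcode sequences occurred in both. After filtering, 9275 cells were used: 479 high endothelial (called HEC below), 4837 other blood endothelial, 3728 lymphatic and 231 left out as dividing or non-endothelial. Raw UMIs were summed per library, pool and class. The HEC sums held 11 to 131 cells and 77051 to 1117104 UMIs, and the 4 peripheral ones were the smallest, with 11 to 45 cells. Levels are given in CPM, the UMIs of a gene per 1000000 UMIs of its sum, and are compared within a gene or a fixed sum of genes, not between genes. Ptprc, Cd3e and Pdgfrb, which mark leukocytes, T cells and mural cells, had 0 UMIs in all HEC sums. The whole list of 8 leukocyte markers summed to 443 to 939 CPM in WT HEC and to 124 to 222 CPM in WT other blood endothelial cells, and Cd79a, a B cell gene, reached 30.6 CPM in 1 WT HEC pool. The antibody-cell genes Jchain and Mzb1 together had at most 1.23 CPM there. Xist, which is transcribed from an inactive X chromosome, marked 82.5% and 73.1% of the Xbp1-KO cells but 1.29% and 1.77% of the WT cells in library 1, for peripheral and mesenteric nodes. In library 2 it marked 0.608% and 0.114% of the Xbp1-KO cells and 85.4% and 76.8% of the WT cells. Genotype and Xist are thus crossed in opposite ways in the 2 libraries, and the pools of a group in the libraries came mostly from different animals, of opposite sex by this gene. Library and sex cannot be told apart within a group. Glycam1 followed Xist in HEC: the 4 pools with Xist held 113614 to 208298 CPM of it and the 4 without held 9167 to 47305 CPM. A gene that takes this share of a sum lowers the CPM of all others, so fitted fold changes use TMM scaling, and values with plain totals are given where they differ.

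Xbp1, the targeted gene, was read first. In HEC it stood at 337 and 257 CPM in the WT peripheral pools of library 1 and 2, against 219 and 182 CPM in the Xbp1-KO peripheral pools. In mesenteric HEC it stood at 501 and 415 CPM in WT and at 223 and 329 CPM in Xbp1-KO. Both Xbp1-KO pools were below both WT pools in each tissue, but transcripts remained in all of them, and the 3′ tags counted here may lie outside the deleted part. The fitted log2 change over both tissues was −0.56 ± 0.25 (SE) in HEC, −0.81 ± 0.13 in other blood cells and −1.03 ± 0.16 in lymphatic cells. None passed edgeR's quasi-likelihood test with Benjamini-Hochberg adjustment, where the lymphatic adjusted p was 0.185. With the library as a block the adjusted p was 0.00105 in lymphatic and 0.000502 in other blood endothelial cells, and 0.9998 in HEC.

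In WT nodes, most of the entry machinery was higher in HEC than in other blood endothelial cells. Of the 33 members 21 were higher past an adjusted p of 0.05 (edgeR), against 10.1% of the 7289 genes tested, and 0 were lower, against 12.3%. HEC and other blood sums came from the same pools, a pairing that this fit left out. The members' median log2 difference was 0.65, and that of all genes was −0.05. Every part of the SEC61 channel passed (3 of 3), as did 9 of 10 OST genes, 3 of 4 TRAP genes and Serp1. Signal peptidase had 2 of 5, SRP 2 of 6, the SEC62, SEC63 and TRAM group 1 of 3, and the SRP receptor 0 of 1. The channel, Serp1, TRAP, signal peptidase and OST together held 18 of the 21 calls. Xbp1 itself was higher in HEC by 1.26 ± 0.17 on the log2 scale.

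Ssr4, a TRAP subunit that helps chains enter the channel, differed most. It stood at 490, 537, 584 and 576 CPM in the HEC pools (peripheral library 1 and 2, then mesenteric library 1 and 2) and at 243, 182, 246 and 212 CPM in the same order in other blood endothelial cells. The groups did not overlap, and the fitted log2 difference was 1.65 ± 0.18 (edgeR adjusted p = 2.24e-06). Sec61b, the small beta subunit of the channel, stood at 500, 525, 659 and 520 CPM in HEC and at 316, 234, 325 and 217 CPM in other blood endothelial cells. Its log2 difference was 1.35 ± 0.20 (edgeR adjusted p = 5.34e-05). Sec61g, the gamma subunit, stood at 735, 548, 894 and 612 CPM against 470, 315, 468 and 326 CPM, a log2 difference of 1.15 ± 0.20 (edgeR adjusted p = 0.000334). For these 3 members, and no other, every HEC pool lay above every pool of other blood endothelial cells on the CPM scale, which 4.35% of tested genes did. Sec61a1, the pore-forming alpha subunit, had a log2 difference of 0.77 ± 0.22 with pools of 67.1 to 137 CPM against 63.8 to 94.5 CPM, which overlap.

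Among OST genes, Ddost (OST48), a non-catalytic core subunit, differed most, by 1.32 ± 0.27 (edgeR adjusted p = 0.00147). Its HEC pools were uneven, with 71.5, 224, 107 and 188 CPM against 66.9, 107, 60.9 and 80.9 CPM, higher within each of the 4 pairs. Both catalytic subunits were higher, Stt3b by 0.92 ± 0.25 and Stt3a by 0.91 ± 0.29. STT3A acts on chains as they pass the channel and STT3B on sites left over. Of the accessory subunits Rpn2 was higher by 0.91, Ostc by 0.88, Tmem258 by 0.76, Dad1 by 0.74, Ost4 by 0.64 and Krtcap2 by 0.63. Rpn1, which contacts the ribosome and the chain, was the 1 OST gene not past the test, at 0.57 ± 0.23. Ostc and Krtcap2 are the subunits that tie the STT3A form to the channel.

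Serp1, a small channel-bound protein known to respond to ER stress, was higher by 1.16 ± 0.21 (edgeR adjusted p = 0.000526), and Tram1, which lies beside the channel, by 0.89. The HEC pools held 102, 44.7, 84.9 and 85.9 CPM of Serp1, and the other blood pools 44.2, 41.2, 50.6 and 43.6 CPM. Sec11c, 1 of 2 interchangeable catalytic subunits of signal peptidase, was higher by 0.96 ± 0.22 (edgeR adjusted p = 0.00351), and its accessory subunit Spcs2 by 0.74. The other catalytic subunit Sec11a had a log2 difference of 0.39 ± 0.19 and did not pass, nor did Spcs1 at 0.23 and Spcs3 at 0.35. Ssr2 and Ssr3 of TRAP were higher by 0.59 and 0.65, and Ssr1 at 0.50 was not past the test. Sec63, a co-chaperone that brings BiP to the channel, had 0.42 ± 0.25.

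Among the genes of targeting, Srp72 and Srp9 of SRP were higher by 0.70 and 0.54, while Srp54a, Srp68 and Srp19 did not pass, at 0.58, 0.07 and −0.02. Srprb, the membrane anchor of the SRP receptor, had 0.14 ± 0.36. Srp54a has near-identical copies whose reads could be split, which makes its count uncertain. Sec62, which serves short chains that enter late, had −0.16 ± 0.21. Srp14, partner of SRP9 in the domain that slows translation, had −0.44 ± 0.20. It was lower past the test with each pool as a block (−0.48, edgeR adjusted p = 0.0255) and with plain totals.

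**Figure D1:**
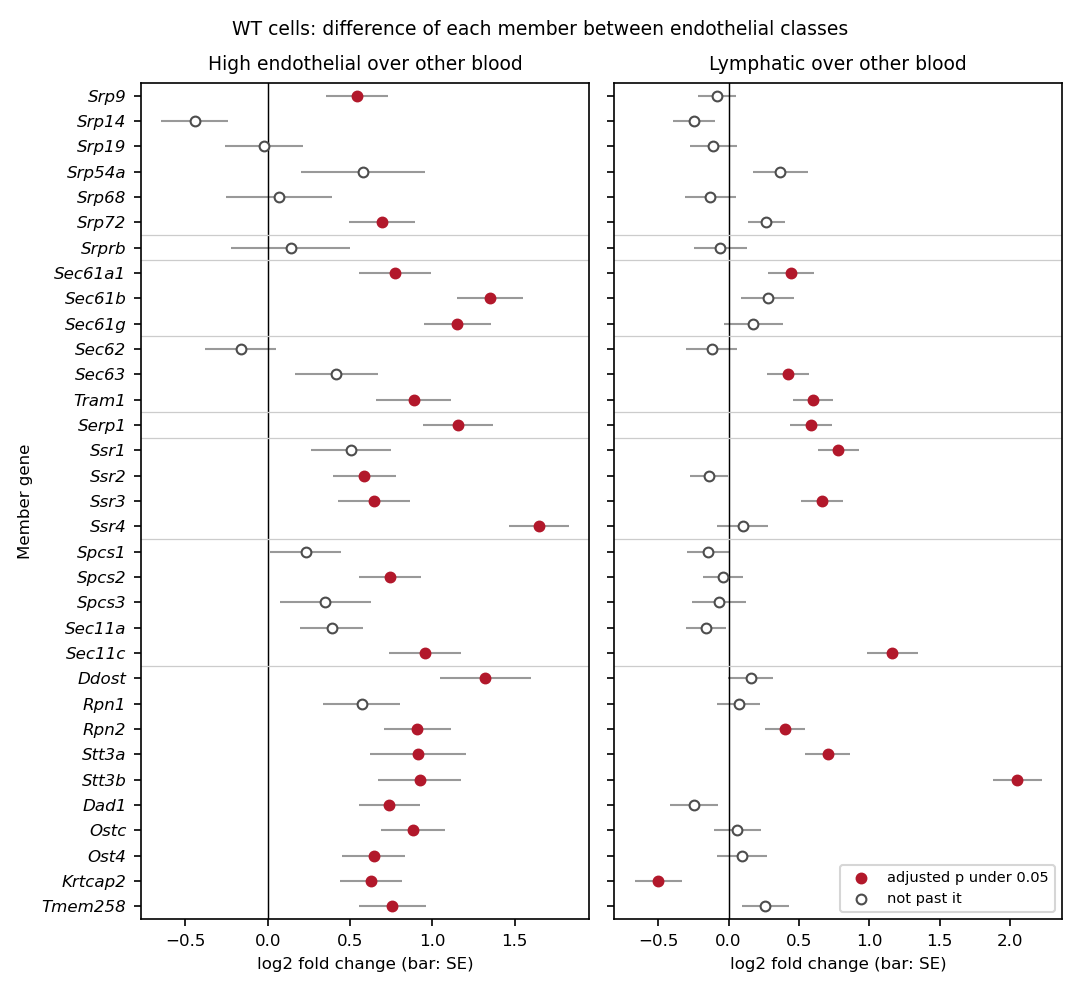
Fitted log2 difference of each member in WT cells between high endothelial and other blood endothelial cells (left) and between lymphatic and other blood endothelial cells (right), with bars of 1 SE and filled points past an adjusted p of 0.05. The 21 filled points on the left all lie above 0, and on the right Stt3b at 2.05 and Sec11c at 1.16 stand apart.

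With plain UMI totals, chosen after seeing the share that Glycam1 takes, the median of all genes moved to −0.38 and 378 genes were higher against 1773 lower, where TMM gave 736 and 900. The members' median was then 0.31, with 8 higher (Ssr4, Sec61b, Ddost, Serp1, Sec61g, Sec11c, Rpn2 and Ostc) and 1 lower (Srp14, by 0.78). Srp68, Srprb and Spcs1 moved to values below 0. HEC also held more UMIs per cell, with a median of 7553 against 2650. With every sum thinned to the size of the smallest, 13 members could be tested and 7 were higher, beside 215 of 1228 genes. Without library 1, 11 members were higher, beside 553 of 7326 genes, and without library 2, 16 were, beside 568 of 9252 genes. Without library 2 the value was 0.33 for Krtcap2 and 0.86 for Ddost, and without library 1 it was 0.36 for Srp9. A list of 16 genes that respond to tissue dissociation had 12 members lower and 1 higher in HEC, while the leukocyte list was higher there. Their part in the member differences was not tested.

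In WT lymphatic endothelial cells Stt3b, a catalytic subunit of OST, differed most from other blood endothelial cells. Of the 33 members 10 were higher than in other blood endothelial cells (edgeR adjusted p under 0.05), against 20% of the 10101 genes tested, and 1 was lower, against 18.2%. The members' median log2 difference was 0.10, and that of all genes −0.01. Those higher were Stt3b, Stt3a and Rpn2 of OST, Sec11c of signal peptidase, Ssr1 and Ssr3 of TRAP, Sec61a1, Sec63, Tram1 and Serp1. No SRP gene passed.

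Stt3b stood at 203, 209, 131 and 162 CPM in the lymphatic pools (peripheral library 1 and 2, mesenteric library 1 and 2) against 39.4, 27.9, 40.9 and 36.2 CPM in other blood endothelial cells. The groups were far apart, with a log2 difference of 2.05 ± 0.17 (edgeR adjusted p = 8.06e-08). Sec11c stood at 137, 114, 217 and 174 CPM against 69.4, 53.3, 64.8 and 60.6 CPM, a log2 difference of 1.16 ± 0.18 (edgeR adjusted p = 7.17e-05). Sec11a, which fills the same place in signal peptidase, had −0.16 ± 0.14 and did not pass. Ssr1, the TRAP subunit that can bind calcium, was higher by 0.78 ± 0.14, Stt3a by 0.71 ± 0.16, Ssr3 by 0.67 ± 0.15, Tram1 by 0.60 ± 0.14 and Serp1 by 0.59 ± 0.15. Sec61a1, Sec63 and Rpn2 were higher by 0.45, 0.42 and 0.40. Krtcap2, which belongs to the STT3A form of OST, was lower by 0.50 ± 0.17 (a log2 difference of −0.50, edgeR adjusted p = 0.0291), with 243, 195, 306 and 258 CPM against 335, 263, 371 and 287 CPM, pools that overlap. With plain totals Krtcap2 did not pass, at −0.33 (edgeR adjusted p = 0.103), nor did it in HEC, at 0.28.

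The balance between the paired catalytic subunits can be read as a share of UMIs. Stt3b made up 62.7% to 75.1% of the Stt3a and Stt3b UMIs in the 4 WT lymphatic sums and 41.1% to 49.8% in those of other blood endothelial cells. In mesenteric HEC it was 44.5% and 45.3%, and the peripheral HEC sums held too few UMIs, 8 and 10, to read it. Sec11c made up 58.8% to 69.8% of the Sec11a and Sec11c UMIs in lymphatic cells and 35.8% to 46.0% in other blood endothelial cells. In mesenteric HEC it was 52.6% and 49.2%, and the peripheral HEC sums, with 17 and 9 UMIs, again held too few. In the Xbp1-KO sums the lymphatic shares were 58.6% to 70.2% for Stt3b and 52.5% to 66.7% for Sec11c.

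With plain totals the median of all genes in the lymphatic comparison was 0.17, 2677 genes were higher and 1351 lower, and 14 members were higher and 0 lower, with a members' median of 0.27. Without library 1 only Stt3b and Sec11c passed, beside 1093 of 8733 genes that were higher, with Sec61a1 at 0.21 and Rpn2 at 0.24. The dissociation genes were again mostly lower in lymphatic cells, with 9 of 16 called lower and 2 higher. Their part in the member differences was not tested.

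Within the classes, clusters differed further. Summed over all 33 members, WT cells of a lymphatic cluster led by Fgf23, Il12a and Ccl20 held 6948 CPM, HEC held 6301 CPM, the other 5 lymphatic clusters held 5202 to 5684 CPM, and the 7 blood clusters 4288 to 4939 CPM. The Fgf23 cluster carried the most Sec11c, 371 CPM, followed by 200 CPM in a cluster led by Scin and Nkx6-1, while the remaining lymphatic clusters held 80.3 to 149 CPM and HEC 106 CPM. Stt3b ran the other way: it was 64.1 CPM in the Fgf23 cluster and 79.7 CPM in the Scin cluster but 211 to 294 CPM in the other 4 lymphatic clusters. These 4 clusters are led by Ackr4, Fxyd2, Marco and Lsamp, and the blood clusters held 28.2 to 55.9 CPM. Ssr4 was 573 CPM in HEC, 462 CPM in the Fgf23 cluster and 175 to 288 CPM in all others. Clusters were not compared by a test, and these values pool all WT cells of a cluster. In library 1 the peripheral HEC pool, at 5462 CPM over all members, lay below the Lsamp, Scin and Fxyd2 clusters at 5553 to 5849 CPM, and the mesenteric pools of the Fgf23 cluster and HEC held 7194 and 7036 CPM. These CPM values are not TMM-scaled. Glycam1 held 47305 CPM of that mesenteric HEC pool, which lowers its other values. The order of HEC and the Fgf23 cluster is therefore not settled. The members had been removed from the genes used for clustering.

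**Figure D2:**
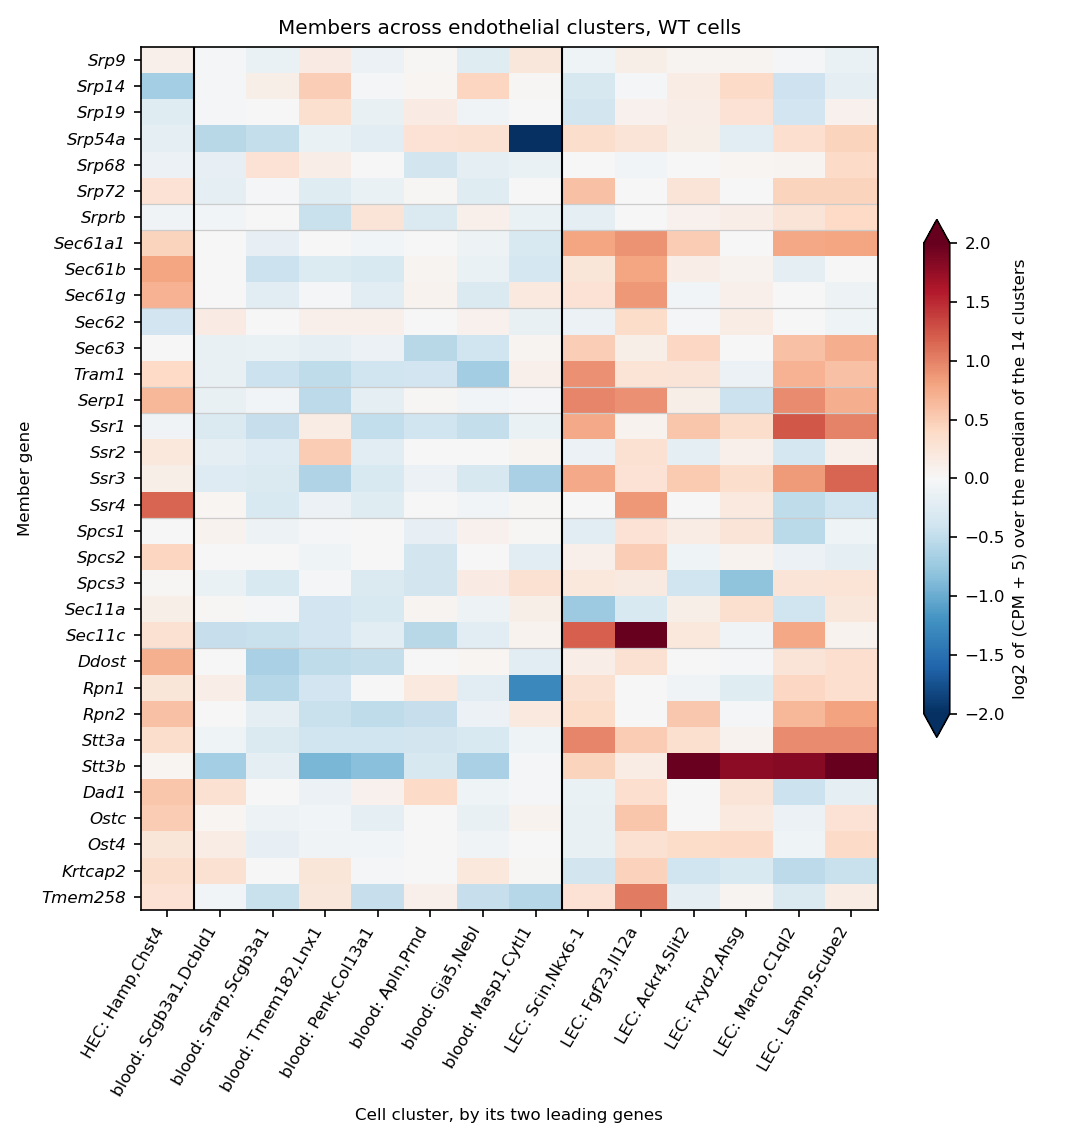
Level of each member in the WT cells of each of 14 endothelial clusters, as log2 of CPM plus 5 over the median of the clusters, with clusters named by their leading genes and the scale ending at −2 and 2. Stt3b is high in 4 lymphatic clusters and Sec11c in the Fgf23 cluster, while Ssr4, Sec61b and Sec61g are high in HEC and in the Fgf23 cluster.

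Arterial-like and venous-like clusters were each set against the capillary-like clusters. HEC and the clusters led by Apln and by Penk were not part of this fit. The venous-like arm is 1 pool, assumed to vary like the others, so its values have no replicate check of their own. Of 6946 genes 507 (7.30%) and 0 members passed for arterial-like cells (edgeR adjusted p under 0.05). For the venous-like pool, with its spread borrowed from the other groups, 169 genes (2.43%) and 0 members did, which shows nothing of how venous-like pools vary. In arterial-like cells the highest members were Srp54a at 0.91 ± 0.48, Srp14 at 0.31 and Spcs3 at 0.27, and the lowest Tram1 at −0.50 ± 0.26, Sec63 at −0.40 and Tmem258 at −0.31. In venous-like cells the highest were Stt3b at 0.86 ± 0.58, Sec11c at 0.70 and Sec61g at 0.62, and the lowest, after Srp54a, were Srprb at −1.49 ± 1.36 and Rpn1 at −0.84. The venous-like sum was 1 pool of 126945 UMIs with 0 UMIs of Srp54a, which allows up to 23.6 CPM, so no fold is given for it.

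Between the mesenteric and peripheral nodes of WT mice 0 members passed edgeR's adjusted test in any class, though 5 did in lymphatic cells with the library as a block. In WT HEC 2 of 6038 genes (0.0331%) differed between the tissues and 0 members did, though 28 of 32 tested had higher fitted values in mesenteric nodes, with a median of 0.35 against 0.06 for all genes. That median was 0.55 in library 1 alone and 0.24 in library 2 alone, where 19 of 31 members were above 0. Summed over the 33 members the WT HEC pools held 7036 and 5667 CPM in mesenteric and 5462 and 4998 CPM in peripheral nodes, in library 1 and 2. The highest were Srprb at 2.18 ± 1.16, which rests on 1 and 0 UMIs in the peripheral pools, Srp19 at 1.01 ± 0.49 and Tram1 at 0.97 ± 0.44, and the lowest Srp9 at −0.16, Srp14 at −0.15 and Krtcap2 at −0.02. In other blood endothelial cells 18 genes (0.180%) and 0 members differed, with a members' median of 0.02. Dissociation genes were measured lower in mesenteric nodes in both classes, 11 of 16 in HEC (median −0.44) and 12 of 16 in other blood endothelial cells (median −0.61), with 0 called. Their part in the member values was not tested.

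In WT lymphatic cells 94 of 10684 genes (0.880%) differed between the tissues and 0 members did (edgeR adjusted p under 0.05). Higher in mesenteric nodes at an unadjusted p under 0.05 were 8 members, against 7.57% of genes. The median over members was 0.30. DESeq2 called 2 members, Sec11c and Ssr4, among 62 genes called in either direction. With the library as a block 5 members were higher, against 3.21% of genes: Sec11c by 0.73, Ssr4 by 0.71, Ostc by 0.64, Tmem258 by 0.55 and Sec61g by 0.49. Ssr4 stood at 353 and 308 CPM in mesenteric and 235 and 190 CPM in peripheral lymphatic pools, which did not overlap. Sec11c stood at 217 and 174 CPM against 137 and 114 CPM. The make-up of the class moved with tissue: the Fgf23 cluster was 31.9% and 27.7% of WT mesenteric and 3.23% and 0.826% of WT peripheral lymphatic cells, while the Scin cluster was 2.95% and 0% against 29.7% and 22.3%. Of the 16 dissociation genes 14 had lower fitted values in mesenteric nodes and 6 were called lower, with a median of −0.87. The part of either in the member differences was not tested.

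**Figure D3:**
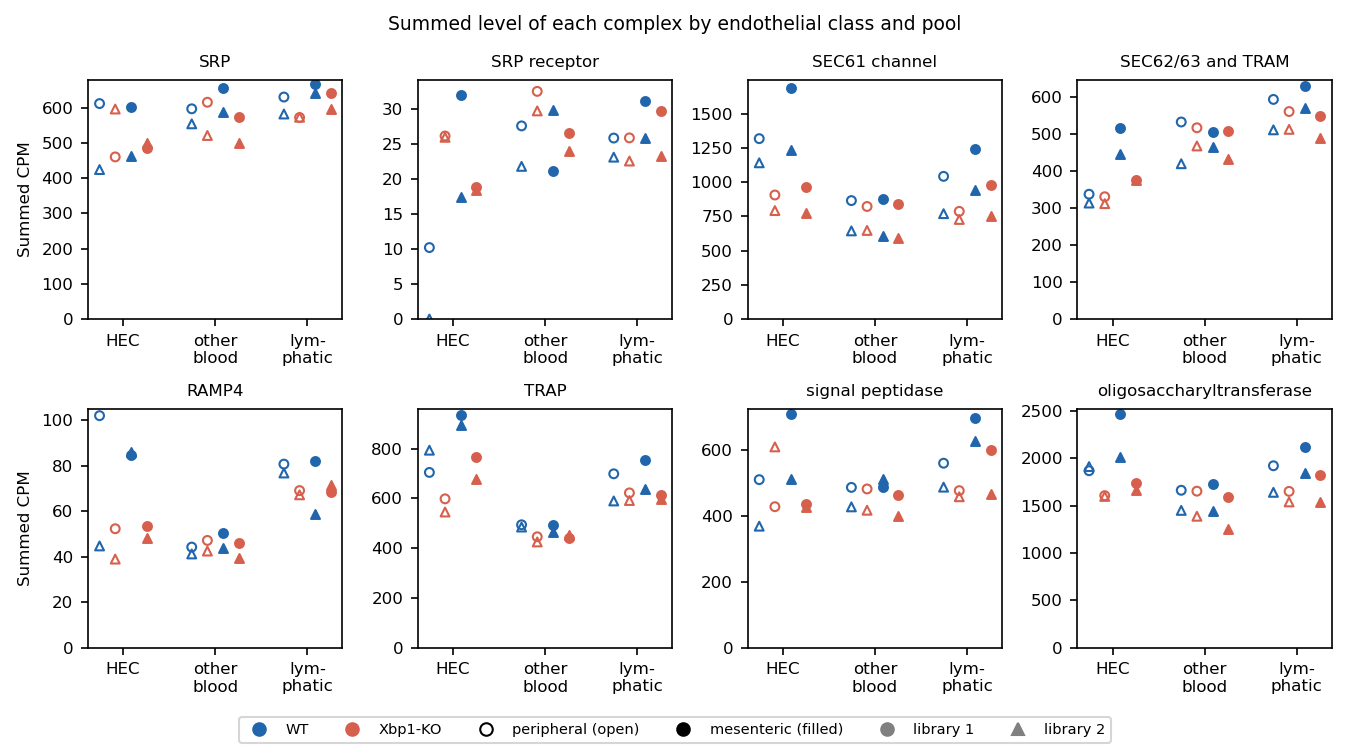
Summed CPM of the members of each complex in every pool, by endothelial class, with colour for genotype, open and filled symbols for tissue, and shape for library. In HEC the 4 Xbp1-KO pools of the SEC61 channel hold 772 to 967 CPM and the 4 WT pools 1140 to 1690 CPM.

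In mesenteric HEC of Xbp1-KO nodes nearly all members were measured below WT, but no gene in the data passed the test. Of 6038 genes 0 (0%) had an edgeR adjusted p under 0.05, with 125 at an unadjusted p under 0.05, and DESeq2 also called 0. Among the 32 tested members 31 had a log2 change below 0, against 48.8% of genes, with a median of −0.45 against 0.01. Both Xbp1-KO pools lay below both WT pools for 22 of the 32, against 13.8% of genes. At an unadjusted p under 0.05 6 members were lower, against 0.927% of genes. The members' median was −0.51 in library 1 alone and −0.38 in library 2 alone, while Xist marked Xbp1-KO cells in the former and WT cells in the latter.

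By role, the SEC61 channel summed to 1690 and 1233 CPM in the WT mesenteric pools of library 1 and 2 and to 967 and 772 CPM in the Xbp1-KO pools. Signal peptidase summed to 710 and 512 CPM against 437 and 428 CPM, and OST to 2465 and 2012 CPM against 1733 and 1661 CPM. TRAP summed to 936 and 897 CPM against 765 and 680 CPM. The SEC62, SEC63 and TRAM group summed to 515 and 445 CPM against 376 and 375 CPM. In all of these both Xbp1-KO pools were below both WT pools. SRP did not separate, with 603 and 464 CPM in WT and 486 and 500 CPM in Xbp1-KO. Nor did the SRP receptor gene Srprb, with 32.0 and 17.5 CPM against 18.8 and 18.4 CPM. The fitted medians were −0.65 for the channel, −0.64 for signal peptidase, −0.53 for OST and −0.43 for the SEC62, SEC63 and TRAM group. They were −0.33 for TRAP and −0.14 for SRP, and Srprb had −0.39.

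Sec63 had the lowest fitted change, with 79.9 and 74.8 CPM in WT and 31.3 and 44.8 CPM in Xbp1-KO mesenteric HEC. Its log2 change was −1.004 ± 0.34 (edgeR unadjusted p = 0.00883, adjusted p = 0.999). Spcs3, the signal peptidase subunit next to the catalytic one, had 70.1 and 38.2 CPM against 26.0 and 34.5 CPM, a log2 change of −0.83 ± 0.35. Sec61b had 659 and 520 CPM against 368 and 279 CPM, a log2 change of −0.81 ± 0.33 (edgeR unadjusted p = 0.0255). In all of these the Xbp1-KO pools lay below the WT pools, by a small gap in Spcs3. The other 3 at an unadjusted p under 0.05 were Spcs2 at −0.69, Serp1 at −0.69 and Sec61a1 at −0.65. Serp1 stood at 84.9 and 85.9 CPM in WT and at 53.7 and 48.3 CPM in Xbp1-KO. The highest values were Srp14 at 0.19 ± 0.29, Ost4 at −0.06 ± 0.34 and Srp9 at −0.10 ± 0.31. Srp54a, with 11.1 to 20.7 CPM in these 4 pools, was below the filter on low counts.

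**Figure D4:**
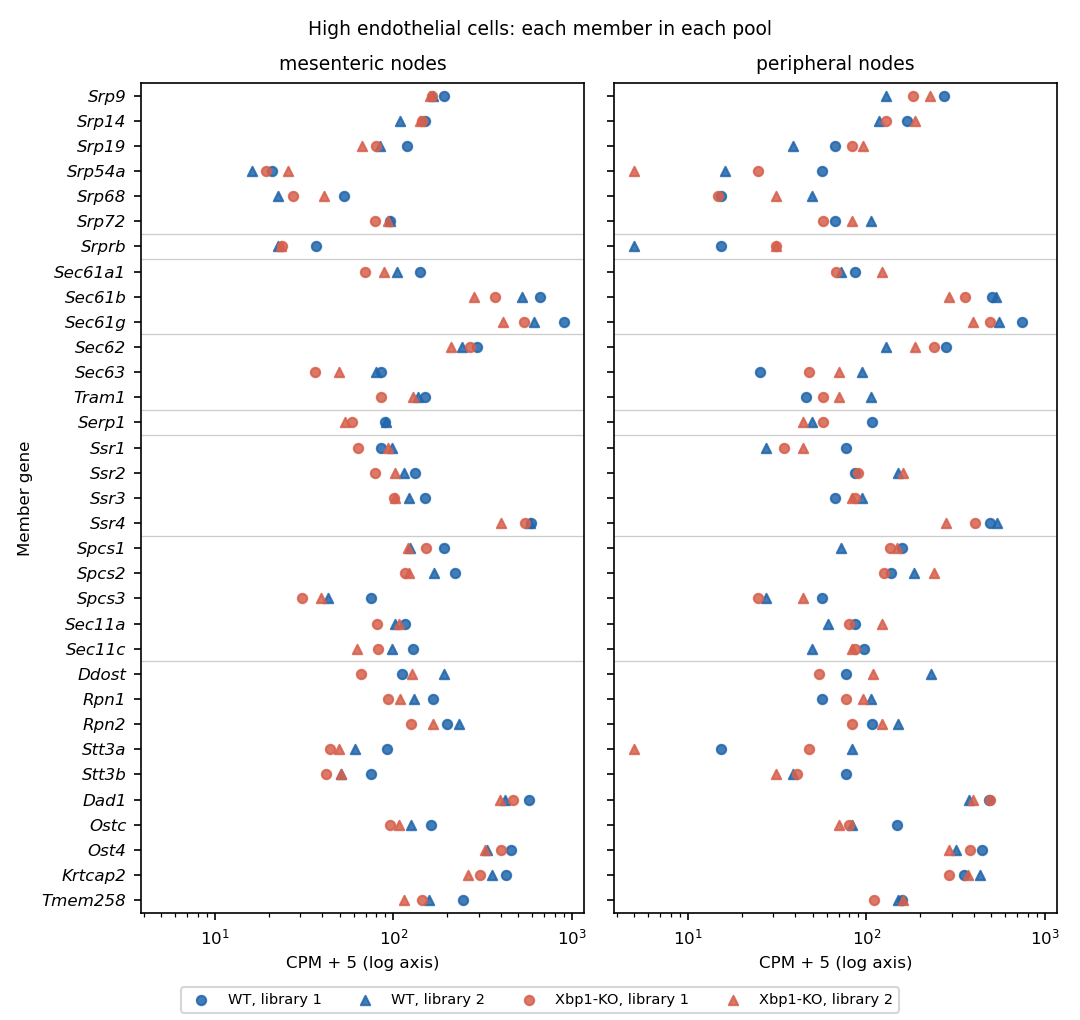
CPM plus 5 of each member on a log axis in the HEC pools, mesenteric nodes left and peripheral nodes right, with colour for genotype and shape for library. In mesenteric nodes both Xbp1-KO pools lie left of both WT pools for 22 members, and in peripheral nodes for 4.

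The 16 dissociation genes all had higher fitted values in Xbp1-KO mesenteric HEC, with a median of 0.62 and 0 called. They summed to 8146 and 11761 CPM in WT and to 9642 and 20043 CPM in Xbp1-KO. Their part in the lower member values was not tested. The list of 8 leukocyte markers, with Ptprc and Cd3e at 0, summed to 443 and 789 CPM in WT and 538 and 588 CPM in Xbp1-KO mesenteric HEC.

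In peripheral HEC the picture was mixed, at 11 to 45 cells a pool. Of 6038 genes 0 (0%) passed (edgeR), with 212 at an unadjusted p under 0.05, and DESeq2 called 0. Of 32 members 18 were below 0, against 47.2% of genes, and the median was −0.10. With TMM it was 0.20 in library 1 alone and −0.46 in library 2 alone, so the libraries pointed in different directions. On plain CPM the sum of the 33 members changed by −0.31 and −0.15 on the log2 scale in library 1 and 2. The direction in library 1 thus depends on the scaling and on the measure. The members' median over both libraries was −0.22 with plain totals, −0.20 with thinned sums and −0.014 with a ratio rule for hashtags. With finer clusters it was −0.18, and 25 of 33 members were below 0. Both Xbp1-KO pools lay below both WT pools for 4 of the 32 members, a share near the 14.7% of all genes: Sec61b, Sec61g, Ssr4 and Ostc. They lay above both WT pools for 2 members, beside 753 of 6038 genes. Sec61b stood at 500 and 525 CPM in WT and 353 and 286 CPM in Xbp1-KO, a log2 change of −0.54 ± 0.37. Ssr4 stood at 490 and 537 CPM against 402 and 273 CPM. The lowest fitted values were Ddost at −1.07 ± 0.59, Srp68 at −0.83 ± 1.06 and Sec61b, and the highest Srprb at 2.41 ± 1.24, Srp19 at 0.92 ± 0.55 and Sec11a at 0.47 ± 0.46. Srprb rests on 1 and 0 UMIs in the WT pools, so its value is no measure of a change. The dissociation genes summed to 14119 and 10521 CPM in WT and to 9295 and 19961 CPM in Xbp1-KO peripheral HEC, and the leukocyte list to 755 and 939 CPM against 595 and 506 CPM. Their part was not tested.

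Over both tissues 0 of 6038 genes (0%) passed in HEC (edgeR), with 196 at an unadjusted p under 0.05 and 0 by DESeq2. Of the members 25 of 32 were below 0, against 45.8% of genes, with a median of −0.29 against 0.03. That median was −0.09 in library 1 alone and −0.40 in library 2 alone. The lowest were Ddost at −0.88 ± 0.35, Sec61b at −0.68 ± 0.25 and Spcs3 at −0.65 ± 0.42 (0.10 without library 1), and the highest Srprb at 1.01, Srp19 at 0.24 and Srp14 at 0.18. The 4 Xbp1-KO pools of Sec61b, at 279 to 368 CPM, lay below the 4 WT pools, at 500 to 659 CPM. The same held for Sec61g, with 389 to 534 CPM against 548 to 894 CPM, and for 2 of 32 members in all, beside 1.18% of genes. The difference of the change between tissues was tested as an interaction, and 0 of 6038 genes (0%) passed, with 209 at an unadjusted p under 0.05 and 0 by DESeq2. The members' median of that difference, mesenteric minus peripheral, was −0.30, with −0.52 in library 1 alone, −0.037 in library 2 alone and −0.11 with finer clusters (Leiden resolution 2).

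The promoters of members can be set beside these values, since XBP1 is known to bind sites with an ACGT core. RefSeq promoter sequence, from 250 bases before to 50 after each start on GRCm38.p6, was at hand for 25 of the 33 members. The letters CCACGT, in which CCACG and ACGT overlap, were found on either strand in 7 of the 25 (28%), and in 9.4% of the 27025 symbols with a promoter and 13.6% of those tested in HEC. They were Krtcap2, Sec63, Serp1, Spcs1, Srprb, Ssr1 and Ssr3. ACGTG alone was in 12 of 25 (48%, against 21.8% and 30.7%) and CCACG in 17 of 25 (68%, against 35.5% and 53.8%). TGACGTG was in 0 of 25, against 2.22% of all. Of the longer elements, ERSE was in 0 of 25, against 0.137%, and ERSE-II in 1 of 25 (4%), against 0.0444%. A match is a description of letters, not a bound site, and no binding was measured here. The 120 bases before the start, on the gene's strand and with CCACGT in capitals, are shown for the members with the lowest change in mesenteric Xbp1-KO HEC among those that hold it (Sec63 and Serp1), for Ssr1, which holds it at 2 places, and for Krtcap2, the 1 member with ERSE-II, which lies outside the window shown.
Sec63, chr10:42761376-42761495, plus strand: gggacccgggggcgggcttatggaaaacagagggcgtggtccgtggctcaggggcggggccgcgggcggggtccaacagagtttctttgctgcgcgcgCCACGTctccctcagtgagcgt
Serp1, chr3:58525885-58526004, minus strand: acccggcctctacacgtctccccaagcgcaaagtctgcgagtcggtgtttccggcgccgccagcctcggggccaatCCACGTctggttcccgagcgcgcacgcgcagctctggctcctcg
Ssr1, chr13:37994209-37994328, minus strand: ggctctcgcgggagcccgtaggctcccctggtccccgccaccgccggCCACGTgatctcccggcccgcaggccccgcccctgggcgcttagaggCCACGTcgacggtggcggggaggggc
Krtcap2, chr3:89246318-89246437, plus strand: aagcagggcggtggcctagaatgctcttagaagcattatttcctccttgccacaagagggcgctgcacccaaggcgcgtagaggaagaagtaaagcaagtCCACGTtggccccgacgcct
In mesenteric HEC the fitted changes of these 4 in Xbp1-KO were −1.004, −0.69, −0.23 and −0.42, and those of the other 3 holders, Ssr3, Srprb and Spcs1, were −0.40, −0.39 and −0.17. Spcs2 and Sec61b, at −0.69 and −0.81, are not among the holders.

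In lymphatic cells of Xbp1-KO nodes most members were also measured below WT, and 0 passed in the fit without the block. Over both tissues 0 of 10684 genes (0%) passed edgeR's adjusted test, 632 had an unadjusted p under 0.05, and DESeq2 called 10. Of the members 31 of 33 were below 0, against 48.9% of genes, with a median of −0.18, and 8 were lower at an unadjusted p under 0.05, against 3.11%. The median was −0.23 in library 1 alone and −0.12 in library 2 alone. When the library entered as a block, 92 genes passed and 3 members fell, against 0.468% of genes: Ostc, Spcs2 and Sec61b. Ostc stood at 92.3 and 80.2 CPM in WT and 69.0 and 73.8 CPM in Xbp1-KO peripheral pools, and at 135 and 117 CPM against 75.4 and 81.7 CPM in mesenteric pools. Its log2 change was −0.53 ± 0.12 (edgeR adjusted p = 0.282, and 0.0179 with the block). Spcs2 stood at 143 and 119 CPM against 102 and 103 CPM in peripheral, and at 149 and 167 CPM against 112 and 99.6 CPM in mesenteric pools. Its log2 change was −0.49 ± 0.11 (edgeR adjusted p = 0.328, and 0.0185 with the block). Sec61b stood at 382 and 296 CPM against 268 and 265 CPM, and at 448 and 371 CPM against 318 and 277 CPM, with a log2 change of −0.44 ± 0.13 (edgeR adjusted p = 0.582, and 0.0445 with the block). For all 3 the Xbp1-KO pools lay below the WT pools in each tissue. The highest values over both tissues were Srp54a at 0.11 ± 0.17, Srp68 at 0.00 ± 0.19 and Sec61a1 at −0.00 ± 0.14.

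By tissue the lymphatic medians were −0.16 in peripheral and −0.20 in mesenteric nodes. In library 2 alone the peripheral median was −0.036, with 24 of 33 members below 0, and in library 1 alone it was −0.23. In peripheral nodes 0 of 10684 genes (0%) passed edgeR, with 112 at an unadjusted p under 0.05 and 0 by DESeq2. There 32 of 33 members were below 0, against 50.1% of genes, and 14 had both Xbp1-KO pools below both WT pools, against 10.2%. In mesenteric nodes 4 genes passed (0.0374%), 0 of them members, and 31 of 33 members were below 0, against 50.1% of genes. Both Xbp1-KO pools lay below both WT pools for 13 members there, against 15.1% of genes. With the block 1 member, Ostc, fell in mesenteric nodes, against 0.412% of genes. The lowest in mesenteric nodes were Ostc at −0.73 ± 0.17, Spcs2 at −0.59 and Sec61b at −0.51, and in peripheral nodes Spcs2 at −0.39 ± 0.15, Sec61b at −0.38 and Ssr2 at −0.38. The interaction of genotype and tissue passed for 0 genes (0%) by edgeR, with 300 at an unadjusted p under 0.05 and 2 by DESeq2.

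Cluster make-up could move these sums, so the 3 genes were also read within lymphatic clusters. Of 15 pairs of WT and Xbp1-KO sums from the same cluster, tissue and library with at least 20 cells each, Ostc was lower in Xbp1-KO in 12, Spcs2 in 12 and Sec61b in 10. Sec11c was lower in 13, Ssr4 in 11 and Stt3b in 8. The first 3 were read because they were low in the sums of the same cells, and pairs share pools, so this is a description with no test. Dissociation genes moved here too: all 16 had higher fitted values in Xbp1-KO lymphatic cells over both tissues, with a median of 0.38, and 3 of them rose in mesenteric nodes. In peripheral nodes 5 were above and 11 below 0, with a median of −0.056. They summed to 14256 and 16225 CPM in WT and 21860 and 29464 CPM in Xbp1-KO mesenteric lymphatic pools. Their part in the member values was not tested.

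**Figure D5:**
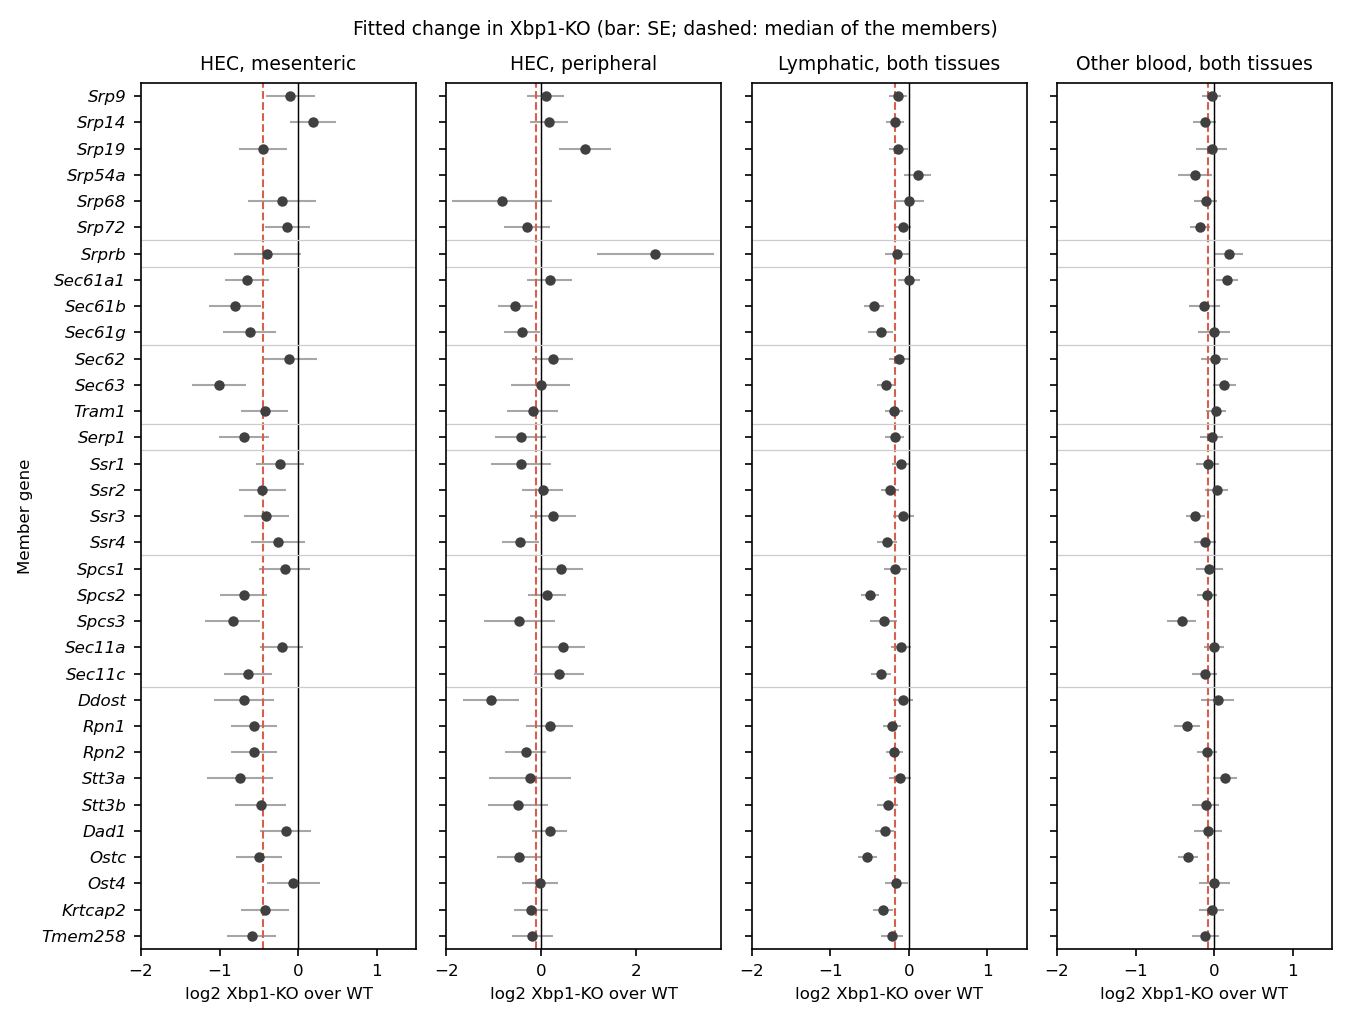
Fitted log2 change of each member in Xbp1-KO against WT in 4 settings, with bars of 1 SE, a dashed line at the members' median and a wider axis for peripheral HEC. The medians are −0.45 in mesenteric HEC, −0.10 in peripheral HEC, −0.18 in lymphatic cells and −0.08 in other blood endothelial cells.

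In other blood endothelial cells of Xbp1-KO nodes, over both tissues, 0 of 10018 genes (0%) passed edgeR, with 243 at an unadjusted p under 0.05 and 4 by DESeq2. Of the members 24 of 33 were below 0, against 49% of genes, with a median of −0.08. The lowest were Spcs3 at −0.41 ± 0.18, Rpn1 at −0.35 ± 0.17 and Ostc at −0.34 ± 0.13, and the highest Srprb at 0.19, Sec61a1 at 0.16 and Stt3a at 0.14. Ostc stood at 93.3, 86.0, 95.6 and 79.8 CPM in the WT pools and at 72.0, 77.7, 65.2 and 64.3 CPM in the Xbp1-KO pools, which do not overlap. The share of all genes separated in this way was not computed for this class. Neither tissue alone nor their difference gave a gene past edgeR's adjusted test (0%), with 116, 270 and 196 genes at an unadjusted p under 0.05 for peripheral nodes, mesenteric nodes and the difference, and 0, 16 and 0 by DESeq2. All 16 dissociation genes had higher fitted values in Xbp1-KO over both tissues (median 0.55) and in mesenteric nodes (median 1.04), with 0 called. In peripheral nodes 12 were above and 4 below 0, with a median of 0.05. The list of 6 erythroid and platelet markers summed to 2947 CPM in the Xbp1-KO mesenteric pool of library 1 and to 4.22 to 165 CPM in the other 7 pools. The part of either list in the member values was not tested.

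Whether the Xbp1-KO change in HEC differed from that in the other classes was tested directly. Against other blood endothelial cells 0 of 9221 genes (0%) passed edgeR, with 357 at an unadjusted p under 0.05 and 0 by DESeq2, and the members' median difference, HEC minus other blood, was −0.21 against 0.05 for all genes, with 0.02 in library 1 alone and −0.23 in library 2 alone. Against lymphatic cells 0 of 9642 (0%) passed, with 432 at an unadjusted p under 0.05 and 0 by DESeq2, and the median difference was −0.03 against 0.09 for all genes, with 0.20 in library 1 alone and −0.33 in library 2 alone. Ddost was lowest in both, at −0.91 ± 0.45 and −0.77 ± 0.38. These comparisons share the HEC sums. A larger change in HEC than in lymphatic cells was thus not shown.

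Other genes of the same route were read from lists. Of 12 tested further subunits and helpers of translocation and OST, 5 were higher and 1 lower in WT HEC than in other blood endothelial cells, where 10.1% of all genes were higher and 12.3% lower. H13, the protease that clears cut signal peptides, was higher by 1.34 ± 0.20 and Naca, which keeps SRP off other ribosomes, by 0.74 ± 0.15. Mlec, a lectin that binds freshly attached sugars beside OST, was the 1 lower, with 0, 1, 3 and 0 UMIs in the WT HEC sums against 64.1, 42.4, 69.6 and 44.7 CPM in other blood endothelial cells. The fitted value, −4.18 ± 0.56, depends on these few UMIs. Of 8 genes that trim and check the attached sugars 4 were higher, among them the lectin chaperones Calr by 0.92 and Canx by 0.72 and the glucosidase subunit Prkcsh by 0.90. Of 13 genes that build the dolichol-linked sugar 0 passed, with Dpagt1, its first enzyme, at 0.73 ± 0.26. Of 17 genes for multipass membrane proteins 2 were higher, Wdr83os by 0.82 and Rab5if by 0.69, a share near that of all genes, and of 7 for tail-anchored proteins and the SND route 0 passed.

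In WT lymphatic cells the same lists gave 4 higher and 3 lower of 14 for further subunits, 2 and 3 of 22 for dolichol-linked sugars, 4 and 0 of 8 for trimming, 1 and 3 of 18 for multipass insertion and 0 and 1 of 8 for the tail-anchored route. Of all genes 20% were higher and 18.2% lower, and apart from the 4 of 8 for trimming these counts lie near or below those shares. Serp2, a relative of Serp1, was higher by 2.14 ± 0.31, with 16.3 to 30.5 CPM against 0 to 6.93 CPM in other blood endothelial cells. Hspa5 (BiP), which pulls chains in from the lumen, was higher by 0.87 ± 0.17, and Mlec was lower, with a log2 difference of −1.18 ± 0.21. Tmco1 of the multipass machinery was lower, at −0.89, and so was Caml of the tail-anchored route, at −0.72. In Xbp1-KO none of these 5 lists had a call in HEC or in lymphatic cells over both tissues. In mesenteric HEC their medians were −0.20 for further subunits (10 tested), −0.07 for dolichol-linked sugars (13), −0.32 for trimming (8), 0.02 for multipass insertion (16) and −0.02 for the tail-anchored route (7). In lymphatic cells over both tissues they were −0.07, −0.05, −0.09, −0.07 and −0.04.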

How the data were processed

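The deposited values are whole-number UMI counts per gene and cell barcode in 2 droplet libraries. They were made with Cell Ranger 6.1 against mm10, per the submitters' processing notes, while the file headers name 6.0.1. The hashtag rows are counts made by the authors in the same way. Barcodes with under 500 genes or over 10% mitochondrial counts were left out. Hashtags were assigned with HTODemux (Seurat 5.3.0, quantile 0.99), which left 6786 and 2690 cells with 1 tag and removed 685 and 130 with several, and Scrublet's doublet calls, 65 and 4 cells, were removed. Scanpy 1.11.5 chose 2000 variable genes. The members, Xbp1 and the other lists were taken out of them, which left 1985 for 30 components, 15 neighbours and Leiden clustering at resolution 1. Clusters were assigned by marker lists, with Prox1 in at least 25% of cells for lymphatic ones.

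For each class, the raw counts of all cells of a pool in a library were added up. These sums were fitted with edgeR 4.0.16 (quasi-likelihood test, TMM scaling, low counts removed by filterByExpr), over all genes, with Benjamini-Hochberg adjustment at 0.05. DESeq2 1.42.0 was an alternative. The scripts were tested on simulated data. The library number pairs pools, since the pools of a number shared 1 droplet run, and the correlation of library differences between pools was 0.00522 to 0.506. In each class it was highest between peripheral and mesenteric pools of the same genotype. The labels do not say whether these share animals, and fits over both tissues treat them as separate. In the Xbp1-KO and tissue comparisons, values with the library as a block are given where they change a member call. Between classes or clusters in WT, the sums came from the same pools, and the main fit has no term for this pairing. There the block was each pool, and of its changed calls only that of Srp14 is given. At most 8 called members were described per comparison in full, by size of change, and where none passed, up to the 3 highest and 3 lowest; others are given by value or count. From the other lists at most 3 genes with the smallest p were named. The members, the lists and the rules were chosen with earlier results of these data known. RefSeq promoters came from a table for GRCm38.p6.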

Additional observations from a re-analysis of the deposited data

How the results depend on the processing

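Each result was computed with no filter on low counts, DESeq2, RLE size factors, the library as a block, plain totals and without each library, apart from venous-like cells. In comparisons between classes or clusters in WT the block was each pool. Thinned sums, another hashtag rule and a finer clustering were run for the Xbp1-KO comparisons within a class and for HEC and lymphatic against other blood. Of the named members' values 1065 kept direction and, where tested, side of the threshold, 12 passed it, 14 lost it and 51 changed sign, and 10 counts of called members moved by over 1.5 times while 144 did not. The cause of each move was not tested. The HEC sums held 11 to 131 cells, the fewest in peripheral nodes. Without either library the Xbp1-KO and tissue comparisons have 1 pool a group, so they give values with no test and no count of calls. Venous-like cells could not be fitted without library 1. Below, names refer to Xbp1-KO against WT unless WT or another class is named. 

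Without the filter on low counts, the number of genes called was 1 for HEC over both tissues, 2 for HEC peripheral, 7 for HEC mesenteric, 1 for HEC tissue difference, 30 for other blood over both tissues, 7 for other blood peripheral, 67 for other blood mesenteric, 15 for other blood tissue difference, 73 for lymphatic over both tissues, 7 for lymphatic peripheral, 104 for lymphatic mesenteric, 25 for lymphatic tissue difference, 16 for WT HEC tissues, 168 for WT other blood tissues, 329 for WT lymphatic tissues and 3 for HEC minus other blood. Without the filter on low counts, the number of members called was 1 for lymphatic over both tissues and 2 for WT lymphatic tissues. Without the filter on low counts, the members' median log2 difference was 0.53 for HEC against other blood and 0.27 for WT lymphatic tissues. With DESeq2, the number of genes called was 4 for other blood over both tissues, 16 for other blood mesenteric, 10 for lymphatic over both tissues, 25 for lymphatic mesenteric, 2 for lymphatic tissue difference, 100 for venous-like, 7 for WT HEC tissues, 34 for WT other blood tissues and 62 for WT lymphatic tissues. With DESeq2, the number of members called was 2 for WT lymphatic tissues. With DESeq2, the members' median log2 difference was −0.081 for other blood over both tissues. With RLE size factors, the members' median log2 difference was −0.082 for other blood over both tissues. With the library (replicate number) as a block, the number of genes called was 17 for other blood over both tissues, 47 for other blood mesenteric, 1 for other blood tissue difference, 92 for lymphatic over both tissues, 1 for lymphatic peripheral, 111 for lymphatic mesenteric, 14 for lymphatic tissue difference, 296 for venous-like, 771 for arterial-like, 7 for WT HEC tissues, 203 for WT other blood tissues and 538 for WT lymphatic tissues. With the library (replicate number) as a block, the number of members called was 3 for lymphatic over both tissues, 1 for lymphatic mesenteric and 5 for WT lymphatic tissues. With the library (replicate number) as a block, the members' median log2 difference was −0.068 for other blood over both tissues, −0.085 for other blood mesenteric and 0.015 for venous-like. With plain totals (chosen after seeing the data), the number of members called was 9 for HEC against other blood. With plain totals (chosen after seeing the data), the members' median log2 difference was −0.10 for other blood over both tissues, −0.16 for other blood mesenteric, 0.31 for HEC against other blood, 0.27 for lymphatic against other blood and 0.22 for WT lymphatic tissues. With sums thinned to the smallest, the number of genes called was 436 for HEC against other blood and 1965 for lymphatic against other blood. With sums thinned to the smallest, the number of members called was 7 for HEC against other blood. With sums thinned to the smallest, the members' median log2 difference was −0.33 for HEC mesenteric, −0.049 for other blood over both tissues and 0.73 for HEC against other blood. With a ratio rule for hashtags, the number of genes called was 1 for HEC peripheral and 1 for lymphatic mesenteric. With a ratio rule for hashtags, the members' median log2 difference was −0.058 for other blood over both tissues and −0.074 for other blood mesenteric. With Leiden resolution 2, the members' median log2 difference was −0.054 for other blood over both tissues. Leaving out either library, the number of genes called was 2058 to 4471 for lymphatic against other blood, 396 for venous-like and 321 to 636 for arterial-like. Leaving out either library, the number of members called was 11 to 16 for HEC against other blood and 2 to 11 for lymphatic against other blood. Leaving out either library, the members' median log2 difference was −0.045 to −0.038 for other blood over both tissues, −0.048 to −0.0056 for other blood peripheral, −0.067 to −0.049 for other blood mesenteric, −0.10 to 0.021 for other blood tissue difference, 0.65 to 0.74 for HEC against other blood, 0.071 to 0.19 for lymphatic against other blood, 0.0077 for venous-like, −0.18 to −0.044 for arterial-like, 0.23 to 0.25 for WT lymphatic tissues and −0.23 to 0.023 for HEC minus other blood. In HEC over both tissues the sign turned for Srp14 at −0.033, Srp19 at −0.10 and Srprb at −0.013 at resolution 2, Srp19 at −0.0014 and Srprb at −0.28 with the ratio rule and Spcs3 from −1.10 to 0.10 leaving out either library. In HEC peripheral the sign turned for Sec11a at −0.049 at resolution 2, Srprb at −0.18 with the ratio rule and Srp68 from −1.09 to 0.36 leaving out either library. In HEC mesenteric the sign turned for Ost4 at 0.14 with thinned sums. In HEC tissue difference the sign turned for Ssr1 from −0.69 to 0.57, Ddost from −0.52 to 0.67 and Srp68 from −1.28 to 1.98 leaving out either library. In other blood peripheral the sign turned for Sec63 at −0.073 with thinned sums and Sec61a1 from −0.0046 to 0.22 leaving out either library. In other blood mesenteric the sign turned for Ddost from −0.062 to 0.27 leaving out either library. In other blood tissue difference the sign turned for Sec63 at 0.12 with thinned sums and Sec63 from −0.62 to 0.099 leaving out either library. In lymphatic over both tissues the sign turned for Sec61a1 at 0.028 with plain totals, Sec61a1 at 0.0048 without the filter, Sec61a1 at 0.013 with DESeq2, Sec61a1 at 0.0013 with the block, Srp68 at −0.0042 with RLE, Srp68 at −0.0049 with the ratio rule, Srp54a at −0.031 with thinned sums and Sec61a1 from −0.16 to 0.34 and Srp54a from −0.12 to 0.23 leaving out either library. In lymphatic peripheral the sign turned for Sec62 at 0.016 and Srp54a at 0.033 with plain totals, Sec62 at 0.15 with thinned sums, Srp54a at 0.0023 without the filter, Srp54a at 0.025 with the block and Sec62 from −0.095 to 0.085, Srp54a from −0.46 to 0.27 and Srp68 from −0.070 to 0.29 leaving out either library. In lymphatic mesenteric the sign turned for Ddost at 0.020 with plain totals, Sec61a1 at −0.076 with thinned sums and Ddost from −0.19 to 0.047 and Sec61a1 from −0.041 to 0.52 leaving out either library. In lymphatic tissue difference the sign turned for Ostc at 0.088 and Ssr4 at 0.066 with thinned sums and Srp54a from −0.071 to 0.68 leaving out either library. In arterial-like the sign turned for Spcs3 from −0.015 to 0.66 leaving out either library. In WT HEC tissues the sign turned for Srp14 at 0.0053 and Krtcap2 at 0.14 without the filter, Krtcap2 at 0.012 with plain totals and Srp9 from −0.41 to 0.32 and Krtcap2 from −0.36 to 0.38 leaving out either library. In WT other blood tissues the sign turned for Spcs3 from −0.19 to 0.92 leaving out either library. In HEC minus other blood the sign turned for Sec63 from −1.01 to 0.11 and Stt3a from −5.05 to 0.61 leaving out either library. The −5.05 of Stt3a is a fit over 0 UMIs in the peripheral Xbp1-KO HEC pool of library 2 and no measured fold.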

Other observations

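Magt1, the oxidoreductase subunit of the STT3B form of OST, was not among the 33 genes. In HEC it stood at 71.5 and 44.7 CPM in the WT and 13.1 and 12.98 CPM in the Xbp1-KO peripheral pools, from 1 to 7 UMIs each. In mesenteric HEC, with 38 to 97 UMIs a pool, it stood at 119 and 87.5 CPM in WT and at 51.9 and 43.7 CPM in Xbp1-KO. Within each tissue both Xbp1-KO pools were below both WT pools, while across tissues the groups overlapped, and the log2 change over both tissues was −1.51 ± 0.39 (edgeR unadjusted p = 0.000977, adjusted p = 0.9999). No gene passed in that comparison.

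Mlec was nearly absent from HEC in both genotypes, with 0 to 3 UMIs in each of the 8 sums, while lymphatic sums held 21.5 to 39.9 CPM and WT sums of other blood endothelial cells 42.4 to 69.6 CPM.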
